A study of Mus musculus with 12 samples.

Results

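The cytosolic ribosomal protein genes of the mouse large intestine were followed through 12 RNA sequencing libraries. They were chosen by symbol alone. A gene was a member if its symbol was Rpl or Rps followed by a digit, or Rplp0, Rplp1, Rplp2 or Rpsa, with pseudogene symbols ending in -ps and the Rps6k kinases left out. The rule gave 89 of 28793 genes, 51 of them large subunit symbols and 38 small subunit symbols. All libraries came from C57BL/6 mice aged 3 months that differed in Tert, the gene of the telomerase reverse transcriptase. In GFP-sorted crypt cells, labelled as crypt base columnar or stem and progenitor cells, 3 libraries were from mTert heterozygous mice and 3 from generation 3 mTert null mice (null G3). In unsorted crypt epithelial cells, 2 libraries were from mTert heterozygous mice, 2 from generation 4 mTert null mice (null G4) and a further 2 from generation 4 mice labelled telomerase reactivated. The labels describe heterozygous libraries as G0 and give no allele beyond these terms, no promoter for the GFP and no agent or duration for the reactivation. Libraries are labelled as biological replicates without naming animals, so p-values describe only how these libraries vary, and part of that variation may be technical.

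The cytosolic ribosome is built from a small subunit, which reads the messenger RNA, and a large subunit, which joins amino acids. Each of its proteins is encoded by its own gene, and the proteins are made in near-equal amounts although their genes are scattered over the genome. Many of their messenger RNAs begin with a C followed by a run of pyrimidines, the 5′ terminal oligopyrimidine or TOP motif, through which the mTOR pathway and LARP1 regulate their translation. In the crypt, dividing stem and progenitor cells are known for high ribosome production.

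By role, 76 members were core ribosomal proteins, with 42 of the large subunit body, 31 of the small subunit and 3 of the stalk. A further 6 were coding variants of a core gene (Rpl3l, Rpl7l1, Rpl22l1, Rpl36al, Rpl39l and Rps27l), and 5 were annotated as pseudogenes (Rps12l1, Rps12l2, Rps3a2, Rps3a3 and Rps4y2). Rps19bp1 encodes a protein that binds a ribosomal protein and is not part of the ribosome. The identifier of the last member, the row named Rpl24 (ENSMUSG00000022601), belongs to Zbtb11 in GENCODE release M21 (chromosome 16, 55973883 to 56008913). Its values are therefore not read as those of the ribosomal gene. A separate row spelled RPL24 carries the identifier of Rpl24 (ENSMUSG00000098274), falls outside the rule, and was low at 0.459 to 3.65 RPKM. RPKM scales reads by gene length and by the library's total. Identifier and symbol agreed in that annotation for 86 of the 89 members, the other exceptions being Rps12l2 (Rps12-ps24) and Rps4y2 (Rps4l).

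The start sites of the core genes were compared with all promoters because the TOP motif is the sequence these genes are known to share. RefSeq promoters (build GRCm38.p6) were found for 64 members, 56 of them core. Of the 6 genes printed, Rps6, Rps27 and Rpl38 hold a tract at the start and Rps15, Rpl7l1 and Rpl36al do not. Each line shows 40 bases before and 10 bases from the annotated start on the transcribed strand, with the pyrimidine tract in capitals.
Rps6: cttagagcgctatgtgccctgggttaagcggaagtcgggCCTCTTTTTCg
Rps27: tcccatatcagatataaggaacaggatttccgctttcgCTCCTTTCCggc
Rpl38: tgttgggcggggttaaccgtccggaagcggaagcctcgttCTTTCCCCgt
Rps15: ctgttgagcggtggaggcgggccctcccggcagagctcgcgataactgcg
Rpl7l1: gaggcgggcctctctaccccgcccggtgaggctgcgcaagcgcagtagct
Rpl36al: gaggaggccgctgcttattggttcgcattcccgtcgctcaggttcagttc
The windows lie at chr4:86857358-86857407 (Rps6, minus strand), chr3:90213639-90213688 (Rps27, minus strand), chr11:114668540-114668589 (Rpl38, plus strand), chr10:80292391-80292440 (Rps15, plus strand), chr17:46782647-46782696 (Rpl7l1, minus strand) and chr12:69184058-69184107 (Rpl36al, minus strand). The tract is 10 bases long in Rps6, 9 in Rps27 and 8 in Rpl38, and in Rps6 and Rps27 the pyrimidine run begins 1 and 2 bases before the annotated start.

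A tract was defined as a C followed by C or T to a length of at least 5 bases, searched on the transcribed strand only. Counted from the first transcribed base, it was present in 13 of 56 core genes (23.2%) and in 813 of 27025 genes with a promoter (3.01%). Allowing a tract to begin within 10 bases of the start raised these shares to 60.7% and 34.4%. None of the 6 coding variants had a tract from the first transcribed base, and 4 had one within 10 bases. A missing match says only that these letters are absent from this window, since an annotated start can lie some bases from the one used in a tissue.

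Tert, the targeted gene, was low throughout. In sorted heterozygous libraries it was at 0.0424, 0.0583 and 0.169 RPKM, and in those labelled null G3 at 0, 0.0787 and 0.00131 RPKM, so 1 null library lay within the heterozygous range. In unsorted libraries it was at 0.459 and 0.251 RPKM for the heterozygous pair, 0.00778 and 0.0377 for null G4, and 0.0171 and 0.0311 for the pair labelled reactivated. The reactivated libraries therefore lay within the null range for Tert, and both null G3 and reactivated are used below as labels. The epithelial marker Epcam was at 134 RPKM or more in all 12 libraries. Cdx1, Cdx2 and Krt18 were lower, at 1.94, 3.17 and 5.58 RPKM in sorted null G3 replicate 1, where Vil1 was at 211. The 8 stromal and muscle markers summed to at most 3.13 RPKM and 9 immune markers to at most 7.06. In the unsorted set 8 colon epithelial markers summed to 1604 and 2053 RPKM for the heterozygous pair and to 2637 to 3250 in the other 4 libraries, and 5 plasma cell markers to 24.4 and 26.6 against 43.6 to 49.9. Most of the plasma cell sum was Sdc1, at 19.9 and 23.7 against 27.95 to 36.3 RPKM. Igha was at 2.045 and 1.454 against 4.88 to 9.118 RPKM, and Igkc at 2.218 and 1.33 against 3.536 to 8.629. Igj was at 0.1503 and 0.1183 against 0.4946 to 0.8791 RPKM, and Mzb1 was at most 0.0857.

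Sorted null G3 replicate 1 stood apart from the other sorted libraries. The stem cell marker Lgr5 was at 0.121 RPKM there and at 3.4 to 4.74 in the other 5 sorted libraries. The summed level of 10 enterocyte markers of the small intestine was 6677 RPKM against 91.4 to 138, and mitochondrial ribosomal RNA took 71.9% of the summed RPKM against 38.7% to 64.4%. Genes at 1 RPKM or more numbered 5424 there and 7721 to 9144 in the others. Sex moved with group in the unsorted set: 4 Y-linked genes summed to 18.2 to 18.9 RPKM in both heterozygous libraries and reactivated replicate 2, and to at most 0.0148 in both null G4 libraries and reactivated replicate 1. Among sorted libraries the Y-linked genes were expressed in null G3 replicate 2 alone (8.54 RPKM). The parts of these differences in the results below were not tested beyond the fits given. Depth is not given in counts, so no counting interval is stated.

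The core genes spanned a wide range of levels per length. In unsorted heterozygous libraries their mean levels ran from 13.9 RPKM (Rps15a) to 494 RPKM (Rplp1), with a median of 97.3. In sorted heterozygous libraries they ran from 8.8 RPKM (Rpl35a) to 368 RPKM (Rps27), with a median of 62.8. The 10 most abundant members held 35.3% of the members' summed RPKM in unsorted heterozygous libraries. Of those 10, 5 were also among the 10 most abundant in sorted ones. Across the 76 core genes the 2 sets of levels had a Spearman correlation of 0.851, given as a description. Levels also ran inversely with the annotated exon length that RPKM divides by (Spearman -0.44 unsorted, -0.39 sorted), so the order of levels depends on the gene models. Which annotation the deposited values used is not given in these sources.

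**Figure D1:**
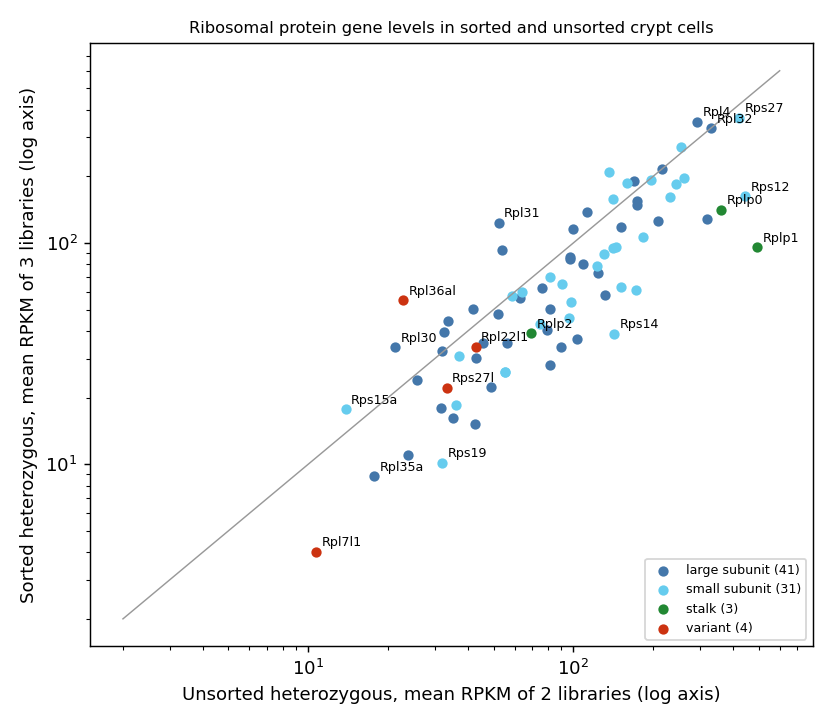
Mean RPKM of core and expressed variant members in unsorted heterozygous (horizontal, 2 libraries) and sorted heterozygous libraries (vertical, 3 libraries), both on log axes, with the grey line marking equal values. Rplp1 lies farthest below the line, at 494 against 95.9 RPKM, and Rpl31 lies above it at 52.3 against 124 RPKM.

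The stalk proteins recruit translation factors to the large subunit, and Rplp1 had the lowest ratio of sorted to unsorted levels among the core genes. Rplp1 (chromosome 9, 61913284 to 61914542, minus strand) was at 499 and 490 RPKM in unsorted heterozygous libraries and at 78.8, 124.9 and 84 in sorted ones. Rplp0, the stalk's anchor, was at 363 and 360.1 RPKM unsorted and at 154, 168 and 101 sorted. Rplp2 was at 69.4 and 69.3 RPKM unsorted and at 38.6, 47.9 and 30.9 sorted. Rplp1 thus ranked 1 among the members in unsorted and 26 in sorted libraries, and its level as a percentage of Rplp0 was 137% and 136% unsorted but 51% to 83.1% sorted. The ratio of sorted to unsorted means had a median of 0.728 over the core genes and ranged from 0.194 (Rplp1) to 2.36 (Rpl31), with 17 of 76 above 1. Genes listed differ between the sets and their scaling may too, so these contrasts carry no test.

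Several core genes have many processed copies in the genome, which limits gene-level values. Of the core genes, 65 of 76 shared over 50% of the 50-base words of their coding sequence with another annotated gene, and the median share was 90.2%. How reads with several matches were assigned is not given in these sources. The 197 rows with -ps symbols together held 37.8 to 234 RPKM in sorted and 71.3 to 99.2 in unsorted libraries. The members together held 943 to 8731 RPKM in sorted and 9480 to 14926 in unsorted libraries.

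The first comparison asked how Tert loss was accompanied by changes in sorted crypt base cells, by setting 3 libraries labelled null G3 against 3 heterozygous ones. Log2 values are log2(RPKM + 1), tested with limma, and a gene passed at a Benjamini-Hochberg adjusted p under 0.05 over all genes tested. None of the 84 tested members passed, as was so for all 8734 genes tested (0%). No member reached an unadjusted p under 0.05, where 1.63% of all genes did as lower and 0.0114% as higher. No member had groups that did not overlap, where 12.6% of all genes did as lower and 0.114% as higher. Without limma's mean trend the member count was also 0. The members' median log2 difference was -0.99, beside -0.46 over all genes, and all 84 were negative, where 7.77% of all genes were positive. With libraries centred on their medians the members' median was -0.48 with 4 positive. With 0.1 added to RPKM instead of 1 it was -1.05, beside -0.69 over all genes.

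The 3 lowest differences belonged to Rps15, Rps27 and Rpl17. Rps15, a small subunit protein near the decoding centre, was at 210, 227 and 149.7 RPKM in heterozygous libraries and at 20.3, 114 and 195 in null G3. Its log2 difference was -1.30 with an SE of 0.76 and an adjusted p of 0.481. Rps27, also of the small subunit, was at 354, 461 and 289 RPKM in heterozygous libraries and at 39.99, 212 and 369 in null G3. Rpl17, at the exit of the peptide tunnel, was at 188, 250.2 and 134 RPKM and then at 22.3, 81.8 and 225. For each of these genes null G3 replicate 1 was far below all other libraries and replicate 3 lay within the heterozygous range, so the groups overlapped.

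The members least displaced were Rps19bp1 (-0.26), Rps27l (-0.30) and the row named Rpl24 (-0.35), none of them core ribosomal genes by identifier, and all 3 turned positive with median centring or quantile normalization. Rps27l encodes a variant of Rps27 whose gene is known as a p53 target. It was at 25.1, 22.6 and 18.9 RPKM in heterozygous libraries and at 10.4, 21.2 and 24.99 in null G3. As a percentage of Rps27 it was 4.89% to 7.1% in heterozygous libraries and 25.9%, 9.98% and 6.77% in null G3 replicates 1, 2 and 3. Among other named members, log2 differences were -0.91 for Rps6 (the small subunit protein phosphorylated by S6 kinase) and -1.16 for Rpsa. They were -0.91 and -1.07 for Rpl5 and Rpl11, which with 5S ribosomal RNA can bind MDM2, and -0.99 to -1.20 for the stalk genes. None of these passed.

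Library by library, the members' shifts were set beside those of all genes. Their median shift from the heterozygous mean was -2.69 in null G3 replicate 1, -0.45 in replicate 2 and 0.16 in replicate 3, while the heterozygous libraries themselves lay at 0.03, 0.26 and -0.29. Over all genes the shifts in the null libraries were -1.03, -0.36 and -0.01. In replicate 1 every tested member was below the heterozygous mean, and 81 of 84 were below the median of all genes. Without that library the members' median difference was -0.15, beside -0.19 over all genes, and 10 of 83 members were positive. Without replicate 3 the median was -1.56, beside -0.70 over all genes. Then 56% of members and 27.8% of all genes had an unadjusted p under 0.05, and none passed. The size of the median in the full comparison thus turned on single libraries, and replicate 1 also carried the enterocyte markers and low Lgr5.

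**Figure D2:**
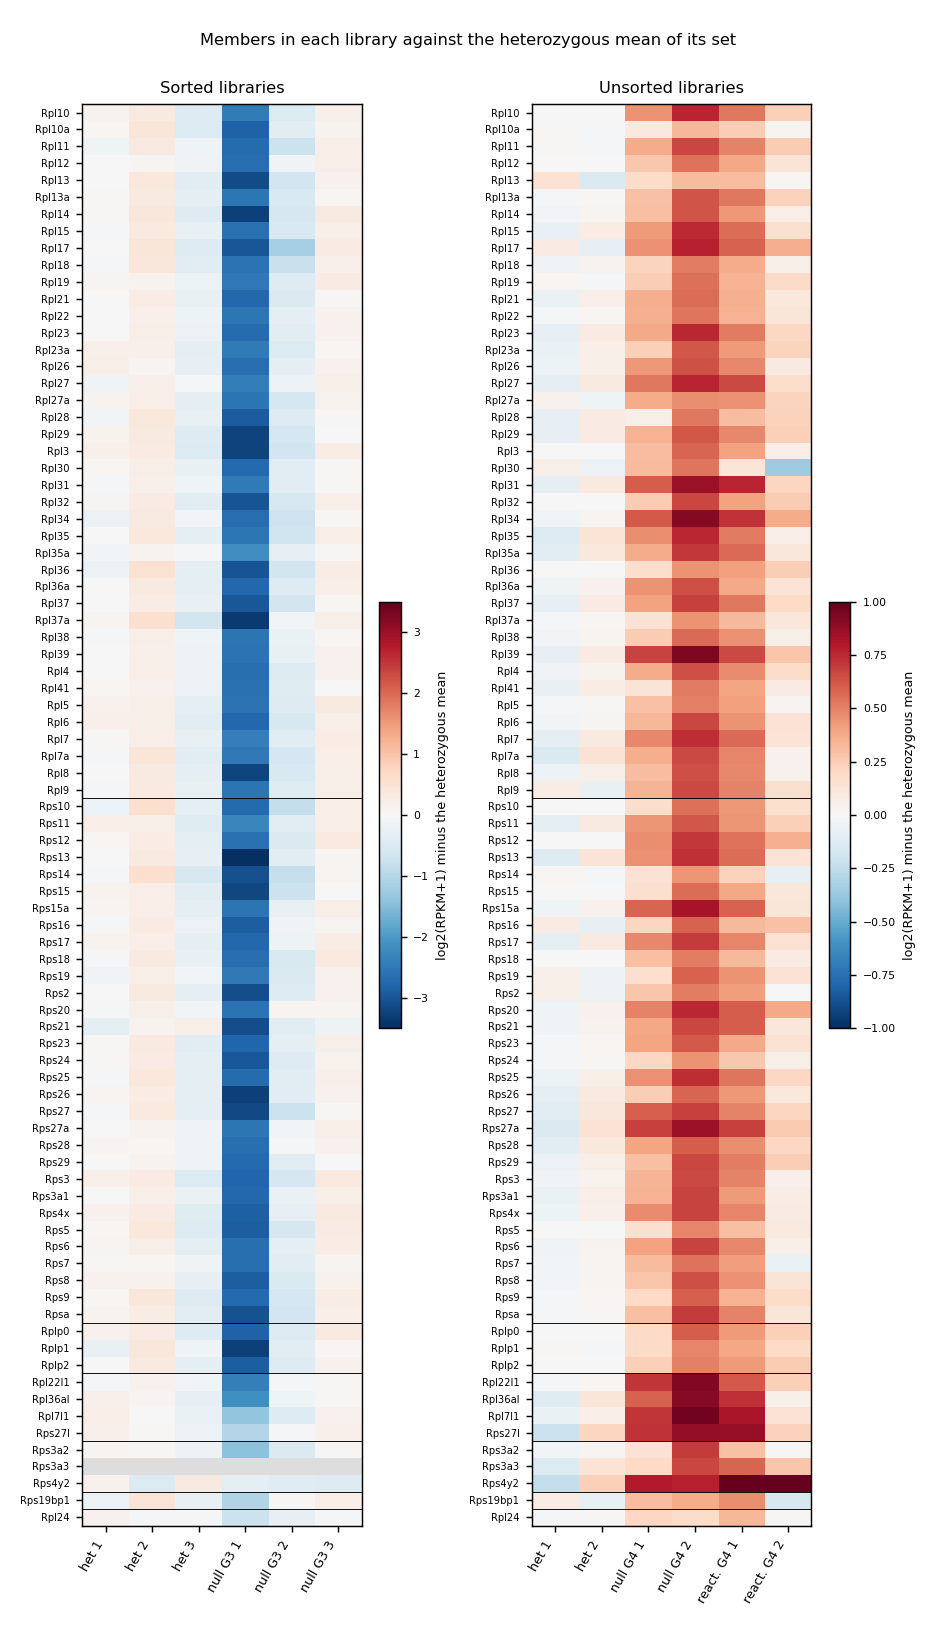
Tested members (rows, grouped by role) in each library (columns) as log2(RPKM + 1) minus the heterozygous mean of its set, with separate colour scales for sorted and unsorted libraries and grey for a member not tested in the sorted set. The column of sorted null G3 replicate 1 is low for every member tested there, from -3.49 (Rps13) to -0.31 (Rps4y2). The unsorted null G4 and reactivated replicate 1 columns are high for nearly all members.

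The second comparison asked the same of unsorted crypts, with 2 null G4 against 2 heterozygous libraries. All 85 tested members had a higher mean in null G4, with a median log2 difference of 0.48 (a fold of 1.4 on the log2(RPKM + 1) scale). The median of all 11464 genes was 0.36, and 86.1% of them were positive, so the members exceeded the general shift by 0.12 on this scale. That excess depended on the 1 added to RPKM, with medians of 0.50 and 0.45 when 0.1 was added instead. None of the 85 members passed limma's test, where 4.97% of all genes passed as higher (570) and 0.576% as lower (66). At an unadjusted p under 0.05 there were 23 members higher (27.1% of those tested), where the share over all genes was 41.8%, and none lower, where it was 2.39%. Without limma's mean trend the order was the other way, with 65.9% of members and 44.1% of all genes at an unadjusted p under 0.05 in either direction. The groups did not overlap for 84 members, with Rpl28 the exception, whereas 74.7% of all genes were non-overlapping and higher and 6.50% lower. Without either reactivated library, which enters only through the shared spread, 17 of 85 members passed as higher (20%), below the 48.0% and 47.9% of all genes. Without heterozygous replicate 2, 1 member (Rps4y2) passed, or 1.18%, where 2.44% of all genes did. Without limma's mean trend 2 members (Rpl22l1 and Rpl39) passed, or 2.35%, where 5.93% of all genes did.

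The size of this displacement depended on scaling. With each library centred on its own median, the members' median was 0.13 and 72 of 85 were positive. With quantile normalization it was 0.07 and 51 were positive. Centring also changed the split among all genes that passed, from 570 higher and 66 lower to 147 higher and 175 lower. Values below are on the deposited scale, so each is read against the shift of 0.36.

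The highest members were mostly variants. Rpl7l1 (chromosome 17, 46773907 to 46782672, minus strand), a paralogue of Rpl7, was at 10.1 and 11.2 RPKM for the heterozygous pair, then 18.2 and 21.8 for the null G4 pair. Its log2 difference was 0.84 (SE 0.25, limma adjusted p 0.0592). Rpl22l1 (chromosome 3, 28805436 to 28807424, plus strand), the paralogue of Rpl22, was at 42.3 and 43.4 RPKM for the heterozygous pair, then 70.97 and 82.2 for the null G4 pair. Its difference was 0.82 (SE 0.23, limma adjusted p 0.0579). Rpl39 (chromosome X, 37082520 to 37085402, minus strand), a small protein of the peptide exit tunnel, was at 30.7 and 34.5 RPKM and then at 52.5 and 63.1. Its difference was 0.81 (SE 0.23, limma adjusted p 0.0588). In each of these genes both null libraries lay above both heterozygous ones, and each missed the threshold.

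The other expressed variants lay close behind. Rps27l (chromosome 9, 66946086 to 66949516, plus strand) was at 28.2 and 38.4 RPKM for the heterozygous pair, then 54.95 and 61.4 for the null G4 pair, a difference of 0.80. Rpl36al (chromosome 12, 69182731 to 69184083, minus strand), a paralogue of Rpl36a, was at 20.8 and 24.8 RPKM and then at 34.6 and 43.6, a difference of 0.75. The 4 expressed variants ranged from 0.75 to 0.84, all with an unadjusted p under 0.05. The 76 core genes had a median of 0.48 and a range of 0.22 to 0.81, with 18 at an unadjusted p under 0.05. Over all genes 41.8% were higher at that limit, so it sets neither the variants nor the core genes apart. The remaining variants were not expressed: Rpl3l, a muscle form of Rpl3, reached at most 0.0486 RPKM in any library. Rpl39l, a testis form of Rpl39, was listed at 0 in all 6 unsorted libraries and not listed in the sorted ones.

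At the low end were the row named Rpl24 (0.20), Rpl10a (0.22) and Rpl13 (0.25). Rpl10a, of the large subunit's mobile stalk near the exit site, was at 54.3 and 53.5 RPKM for the heterozygous pair, then 57.8 and 68.2 for the null G4 pair. Rpl13 was at 69.4 and 56.6 RPKM and then at 71.3 and 78.2. All 3 turned negative when libraries were centred on their medians or quantile normalized. The stalk genes were also in the lower part, at 0.34 (Rplp1), 0.37 (Rplp2) and 0.40 (Rplp0), where quantile normalization turned Rplp1 and Rplp2 negative and median centring Rplp1 alone. Rplp1 was at 566 and 694 RPKM in null G4 against 499 and 490 in heterozygous libraries.

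Subunits did not separate. The large subunit body had a median of 0.47 over 42 genes and the small subunit 0.50 over 31. Rps6 had a difference of 0.54, Rpsa 0.50, Rpl5 0.40 and Rpl11 0.52, and the other partners of the variants lay at 0.44 (Rpl3), 0.61 (Rpl7), 0.44 (Rpl22), 0.55 (Rpl36a) and 0.64 (Rps27). The core genes Rpl10 and Rps4x lay at 0.60 and 0.57. Of these 11 genes Rps6, Rpl5, Rpl11, Rpl22 and Rpl36a turned negative under quantile normalization. Nor did core genes with a tract at the start separate from those without, with medians of 0.53 over 13 genes and 0.50 over 43. The 4 core genes on the X chromosome (Rpl10, Rpl36a, Rpl39 and Rps4x) ranged from 0.55 to 0.81, all above the autosomal core median of 0.46 over 72 genes. X-linked dose and Y-linked expression both follow sex, which differed completely between these 2 groups of libraries. With a term for Y-linked expression, which only the reactivated libraries make estimable, the members' median was 0.16 and none passed. Over all genes the median was then 0.093, with 0.515% passing as higher and 0.0872% as lower.

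**Figure D3:**
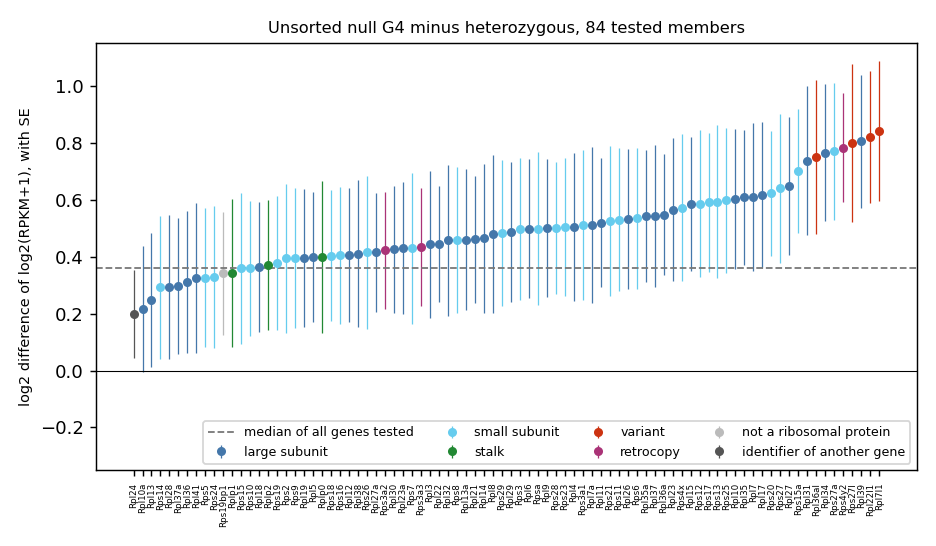
Log2 difference of unsorted null G4 minus heterozygous (vertical, points with SE bars) for 84 of the 85 tested members in order of size, coloured by role, with the dashed line at the median of all genes tested. All 84 points are above 0, the 4 variants sit from 0.75 to 0.84, and the stalk genes sit from 0.34 to 0.40.

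Ratios of a variant to its partner are free of each library's scale. Rpl22l1 was at 166.5% and 166.1% of Rpl22 in unsorted heterozygous libraries, at 213.8% and 217.6% with null G4, and at 199.8% and 180.9% in the pair labelled reactivated. Rpl7l1 was at 10.5% and 10.2% of Rpl7 in heterozygous libraries, at 12.7% and 12.62% in null G4, then at 12.9% and 10.5% in the reactivated ones. Rpl36al was at 67.6% and 75.2% of Rpl36a in heterozygous libraries, at 79% and 86.6% in null G4, then at 91.5% and 66.8% in the reactivated ones. Rps27l was at 7.27% and 8.4% of Rps27 in heterozygous libraries, at 8.64% and 9.06% in null G4, then at 10.3% and 7.92% in the reactivated ones. In all 4 pairs both null libraries lay above both heterozygous ones, by a narrow margin for Rps27l and Rpl36al. The same 4 ratios were lower in every library with Y-linked expression (the heterozygous pair and reactivated replicate 2) than in every unsorted library without it. Sex and the null label cannot be told apart between the heterozygous and null libraries. An exact two-sided permutation test of 2 libraries against 2 cannot give a p below 0.333, so no test was made of these ratios. In sorted libraries Rpl22l1 ran from 136% to 149.4% of Rpl22 in heterozygous and from 129.95% to 173.5% in null G3, and the groups overlapped.

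**Figure D4:**
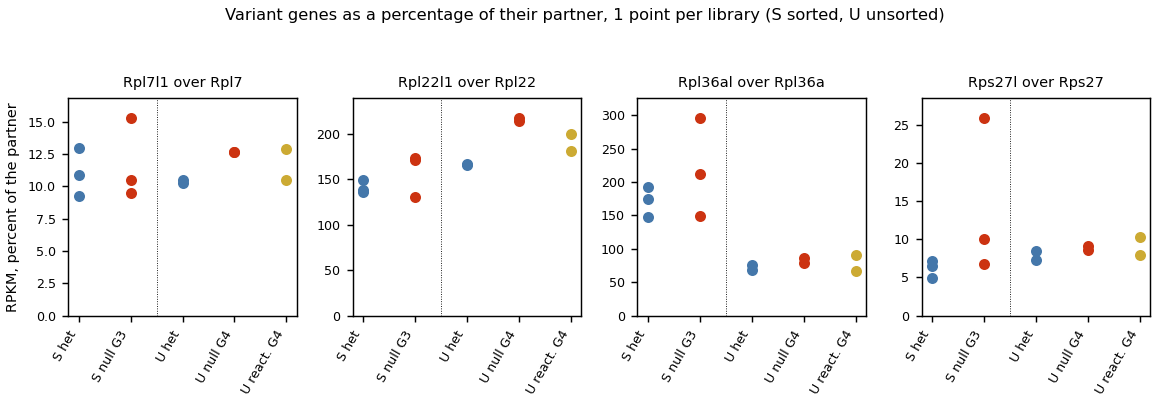
RPKM of 4 variant genes as a percentage of their partner gene (vertical, linear from 0), 1 point per library, for the 2 sorted and 3 unsorted groups. Rpl22l1 in unsorted libraries is at 166.1% and 166.5% in heterozygous, 213.8% and 217.6% in null G4, then 180.9% and 199.8% in reactivated libraries.

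The third comparison asked what changed where telomerase was labelled as reactivated, against null G4. The members' median log2 difference was -0.19, beside -0.14 over all genes. With 0.1 added to RPKM instead of 1 these medians were -0.189 and -0.174. In the main fit 83 of 85 members were lower, against 53 with libraries centred on their medians. Over all genes 18.6% were positive without that centring. None passed limma's test, where 0.0174% of all genes passed as higher (2) and 0.00872% as lower (1), and without limma's mean trend the member count was also 0. At an unadjusted p under 0.05 there was 1 member lower, Rpl30, and none higher, where the shares over all genes were 1.99% and 0.715%. Groups did not overlap for 9 members that were lower and 1 that was higher, against 25.5% and 4.58% of all genes. The lowest were Rpl30 (-0.54), Rpl22l1 (-0.40) and Rpl36al (-0.36). Rpl30 (chromosome 15, 34440505 to 34443640, minus strand), a large subunit protein, was at 26.6 and 31.2 RPKM in null G4 and at 23.2 and 16.4 in reactivated libraries. Rpl22l1 was at 70.97 and 82.2 RPKM and then at 66.01 and 50.7. In both, each reactivated library lay below each null one.

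The highest members in this comparison were Rps4y2 (0.27), Rpl36 (0.02) and Rps3a3 (-0.01, positive with median centring). The stalk genes lay near 0, at -0.03 to -0.07, and Rplp0, Rplp1 and Rplp2 turned positive when libraries were centred on their medians. The 2 reactivated libraries differed from each other, with median member shifts of 0.46 and 0.14 from the heterozygous mean, against 0.34 and 0.64 in null G4. Without reactivated replicate 2, after which no library on either side has Y-linked expression, the members' median difference was -0.02 and 32 of 85 were positive. Without reactivated replicate 1 it was -0.35.

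The fourth comparison set the libraries labelled reactivated against heterozygous ones. It shares its heterozygous libraries with the second comparison and its reactivated ones with the third, so their values are not independent. Of the 85 members 84 were higher, where 84.1% of all genes were, with a median of 0.30 beside 0.22 over all genes. With 0.1 added to RPKM instead of 1 the medians were 0.31 and 0.28. Groups did not overlap for 74 of these members, where the shares over all genes were 46.7% higher and 4.42% lower. Quantile normalization moved the members' median to -0.01 with 40 positive. Only 1 member passed, where 1.13% of all genes passed as higher (129) and 0.148% as lower (17). It was also the one member at an unadjusted p under 0.05, against 12.4% of all genes higher and 1.70% lower. The member was Rps4y2 (chromosome 6, 148354656 to 148355598, plus strand), annotated as a transcribed processed pseudogene under the name Rps4l, a retrocopy of the Rps4 family. It was at 3.98 and 5.92 RPKM for the heterozygous pair, 9.18 and 9.04 for null G4, and 11.6 and 10.9 for the pair labelled reactivated. It rose by 1.06 on the log2 scale (SE 0.19, limma adjusted p 0.042). It did not pass without heterozygous replicate 1 (0.82, limma adjusted p 0.204) or without reactivated replicate 1 (1.01, limma adjusted p 0.125). With median centring, quantile normalization, no filter, rescaling or a sex term the limma adjusted p was 0.0878 to 0.238.

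In null G4 against heterozygous libraries Rps4y2 had a difference of 0.78 (limma adjusted p 0.0507). As a percentage of Rps4x it was 2.58% and 3.57% in heterozygous, 4.14% and 3.54% in null G4, then 5.14% and 6.4% in reactivated libraries. In sorted libraries it was low, at 0.89 to 2.27 RPKM, with overlapping groups. Of its 50-base words 14.9% also occurred in other annotated genes, a smaller share than in most core genes.

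Other members near the top of the reactivated against heterozygous comparison were Rps27l (0.55) and Rpl34 (0.55). Rpl34 was at 47.8 and 49.8 RPKM for the heterozygous pair, then 81.1 and 63.3 for the reactivated pair. At the low end were Rpl30 (-0.12), Rps14 (0.07) and Rpl10a (0.14), the last of which turned negative, with Rps14, under median centring or quantile normalization. Groups overlapped for Rpl30 and Rps14 but not for Rpl10a, at 54.3 and 53.5 RPKM against 63.9 and 54.997. Between libraries that shared Y-linked expression, heterozygous and reactivated replicate 2, the members' median difference was 0.14, beside 0.08 over all genes.

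**Figure D5:**
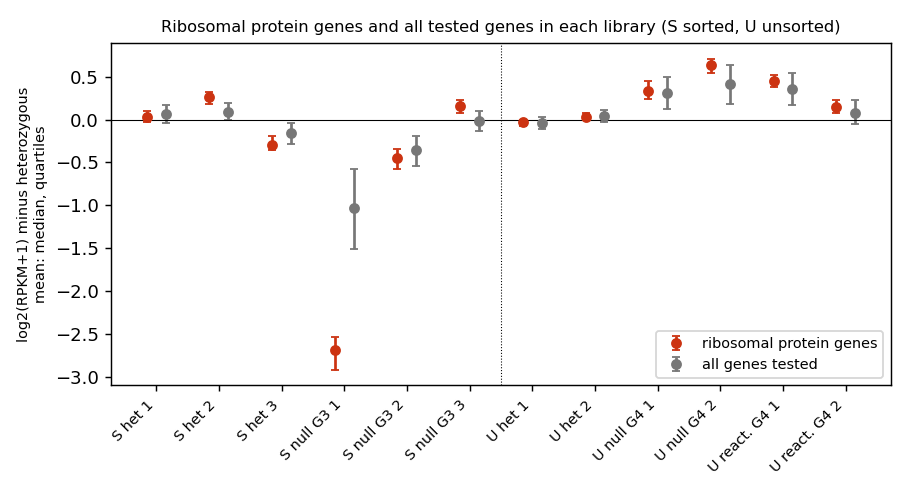
Median and interquartile range of log2(RPKM + 1) minus the heterozygous mean of the set (vertical) in each library, for the tested ribosomal protein genes (red) and all tested genes (grey). Sorted null G3 replicate 1 is at -2.69 for the members and -1.03 for all genes, and the unsorted null G4 libraries are at 0.34 and 0.64 for the members.

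Whether the null effect differed between the sets was tested directly, as the sorted null G3 effect minus the unsorted null G4 effect. Cell fraction, generation and set differ together here and cannot be told apart. None of 85 members passed limma's test, where 0% of all genes passed as higher (0) and 0.303% as lower (36 of 11862), and 2 members (Rpl7l1 and Rps4y2) had an unadjusted p under 0.05 as lower and none as higher, where the shares over all genes were 25.2% and 0.877%. Without limma's trend the member count was also 0. The members' median difference was -1.46, beside -0.73 over all genes, or -1.56 beside -1.09 with 0.1 added to RPKM instead of 1. The lowest were Rps27 (-1.93), Rpl17 (-1.91) and Rpl34 (-1.88), and the highest were Rps3a3 (-0.52), the row named Rpl24 (-0.55) and Rps19bp1 (-0.60), which all turned positive with median centring. Without sorted null G3 replicate 1 the members' median was -0.63, and without replicate 3 it was -2.05, beside -0.91 over all genes. In the latter fit 8 of 85 members passed as lower (9.41%), below the 29.5% of all genes.

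Markers of dividing cells moved with the members in unsorted libraries. The summed level of 7 proliferation genes was 67.3 and 68.5 RPKM for the heterozygous pair, 143 and 159 in null G4, and 129 and 69.8 in the reactivated libraries. The members' share of the summed RPKM was 3.94% and 3.72% in heterozygous, 5.34% and 6.18% in null G4, then 5.64% and 4.57% in the reactivated libraries. Mitochondrial ribosomal RNA took 19.2% and 27.3% in heterozygous, 12% and 11.9% in null G4, then 10.8% and 16.7% in the reactivated libraries. The heterozygous pair and reactivated replicate 2 were the libraries with Y-linked expression. They had the lowest proliferation sums and member shares and the highest mitochondrial shares, and the part of sex in this was not tested. With mitochondrial and member genes left out of the scaling, the members' median in null G4 against heterozygous was 0.38. In bulk libraries more dividing cells and more RNA per cell cannot be told apart.

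Other genes of ribosome production and translation were taken from lists named by function, which were chosen with earlier results of these data known. Of 19 translation factors and related genes with TOP messenger RNAs, 2 passed as higher and none as lower in null G4 against heterozygous unsorted libraries, where 4.97% of all genes passed as higher. Their median was 0.59, beside 0.36 over all genes.

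The 2 were Nap1l1, a nucleosome assembly protein, and Eif2s3x, a subunit of initiation factor 2. Nap1l1 was at 4.98 and 4.55 RPKM for the heterozygous pair, 10.9 and 11.3 in null G4, and 9.78 and 6.41 in the reactivated libraries (difference 1.07, limma adjusted p 0.03 for null G4). Eif2s3x, an X-linked gene known to escape X inactivation, was at 3.62 and 4.6 RPKM for the heterozygous pair, 12.1 and 13.2 in null G4, and 12.1 and 4.64 in the reactivated libraries (difference 1.42, limma adjusted p 0.0498). Its 3 low libraries were the 3 with Y-linked expression. Npm1, a nucleolar chaperone, was at 32.6 and 37.5 RPKM for the heterozygous pair, then 67.4 and 75.8 for the null G4 pair (difference 1.01, limma adjusted p 0.0527).

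In the same comparison none of 29 tested ribosome biogenesis genes passed and all 29 were positive, with a median of 0.66. Fibrillarin, the rRNA methyltransferase encoded by Fbl, had a difference of 0.73. None of 19 genes of RNA polymerase I and its factors passed (median 0.41), with Rrn3, an initiation factor of that polymerase, at 0.93. None of 7 snoRNA host genes passed (median 0.47), nor any of 14 tested ribosome regulators (median 0.30), among them Larp1 at 0.55, Mtor at 0.29 and Myc at 0.15. In sorted libraries labelled null G3 none of these genes passed, and their list medians ran from -0.56 (regulators) to -0.90 (snoRNA hosts), beside -0.46 over all genes. Without null G3 replicate 1 the 5 list medians ran from -0.12 (TOP factors) to -0.26 (snoRNA hosts), beside -0.19 over all genes. Against null G4 the libraries labelled reactivated had list medians from -0.07 (regulators) to -0.33 (biogenesis), beside -0.14, and none passed. Against heterozygous ones they had list medians from 0.13 (snoRNA hosts) to 0.36 (TOP factors), beside 0.22, and none passed.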

How the data were processed

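The authors deposited RPKM values in 1 table of 28793 genes and 12 libraries, all used here. Per the labels' protocols, total RNA (Qiagen RNeasy Mini, 1 ug input) went into TruSeq RNA libraries. STAR 2.3.0e and mm10 appear, with no role given, in the submitters' processing notes. The sources used here give no annotation, counter or strand setting. Counts are not given, so no count test was run. The sorted and unsorted columns list different genes and may have been scaled separately.

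Values were analysed as log2(RPKM + 1). A gene was tested if it reached 1 RPKM in as many libraries as the smallest group holds, using limma 3.58.1 (R 4.3.3) with a mean trend, two-sided, and Benjamini-Hochberg adjustment over all genes tested. The 6 sorted libraries, the 6 unsorted libraries (3 groups of 2) and all 12 (difference of null effects) were fitted separately. The fits were also run on simulated data with independent noise and no shift shared by the genes of a library. The changes added there were larger than the members' medians, so recovery at the observed sizes was not examined. Other steps used Python 3.11.15, pandas 2.3.3, numpy 2.4.6 plus matplotlib 3.10.9. Gene coordinates (1-based, mm10) and 50-base words come from GENCODE M21.

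Members and lists were chosen with earlier results of these data known. Genes named by rule were variants with their partners, stalk genes, Rpsa, Rps6, Rpl5, Rpl11, the 3 highest and 3 lowest members of each comparison and any that passed. Rpl28, extremes of level, genes of the printed sequences and single genes of the other lists were chosen after their values were seen. Alternatives were the pseudocount (0.1), no filter, 4 scalings, no trend, a replicate block, a sex term (Ddx3y at 0.5 RPKM or more) and leaving out each library. Other list medians without sorted null G3 replicate 1 were added after seeing the data. Results for 1 member and for 1 gene list are not reported here, although the member stays in the counts and medians.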

Additional observations from a re-analysis of the deposited data

How the results depend on the processing

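For null G4 against heterozygous libraries, where 0 members passed, 2 passed without limma's mean trend (2.35%, against 5.93% of all genes) and 0 to 17 when a library was left out (17 is 20%, against 48.0% and 47.9% of all genes in the 2 fits). The members' median of 0.48 was 0.13 with median scaling, 0.071 with quantile normalization and 0.16 with the sex term. For reactivated against heterozygous libraries, where 1 passed, 0 passed when centred on the members, with median scaling, no filter, quantile normalization, rescaling or the sex term, and 0 to 2 when a library was left out. The second that passed without reactivated replicate 2 was Rpl7l1, and those 2 are 2.35% of members, against 19.8% of all genes. The members' median of 0.30 was 0.089 with median scaling and -0.0102 with quantile normalization. In that comparison the scaling, filter and sex term settings with 0 members passed had 0.0702% to 0.855% of all genes pass as higher. The shares passing as lower were 0.0156% to 0.532%. For the difference of the null effects, 0 to 8 members passed as lower when a library was left out (8 is 9.41%, against 29.5% of all genes). In the sorted set the members' median shift per library had an SD of 1.08 within groups, more than the members' median difference of -0.99, so staying within 1 SD does not show that this median is stable. The cause of these shifts was not tested.

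With the replicate block, 0 members passed in sorted null G3, where 0% of all genes did. In null G4 against heterozygous, 1 (Rps4y2) passed as higher, or 1.18%, where 10.1% of all genes passed as higher and 1.37% as lower. In reactivated against null G4, 0 passed, where 0.0349% of all genes passed as higher and 0.0436% as lower. In reactivated against heterozygous libraries, 1 passed as higher, or 1.18%, where 1.84% of all genes passed as higher and 0.462% as lower. After group means were taken out, same-numbered libraries correlated at 0.05, -0.03 and -0.19 in the sorted set, where differently numbered ones ran from -0.11 to 0.21. In the unsorted pairs of groups they correlated at 0.22, -0.07 and -0.12. With 2 libraries a group, crossed numbers must give the same size with the opposite sign. These values therefore cannot show or exclude a shared batch or pairing. With numbers crossed between null G4 and reactivated libraries, chosen after seeing the data, 0 members passed, where 0.00872% of all genes passed as higher.

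Log2 differences of 62 gene and setting pairs changed sign, and 892 kept sign and side of the threshold. Rpl24 below is the row of that name, with the Zbtb11 identifier. In sorted null G3 against heterozygous, median scaling turned Rps19bp1 to 0.25, Rps27l to 0.20, Rpl24 to 0.15. In sorted null G3 against heterozygous, quantile normalization turned Rps19bp1 to 0.24, Rps27l to 0.10, Rpl24 to 0.12. In sorted null G3 against heterozygous, rescaling without mitochondrial and member genes turned Rps19bp1 to 0.14, Rps27l to 0.26. Leaving out a library in sorted null G3 against heterozygous gave ranges of -0.50 to 0.13 for Rps19bp1, -0.54 to 0.059 for Rps27l. In null G4 against heterozygous, median scaling turned Rpl24 to -0.16, Rpl10a to -0.14, Rpl13 to -0.11, Rplp1 to -0.017, Rpl28 to -0.065. In null G4 against heterozygous, quantile normalization turned Rpl24 to -0.074, Rpl10a to -0.33, Rpl13 to -0.30, Rplp1 to -0.019, Rplp2 to -0.18, Rpl22 to -0.0798, Rpl36a to -0.016, Rpl5 to -0.14, Rpl11 to -0.035, Rps6 to -0.0063, Rpl28 to -0.14. In null G4 against heterozygous, the sex term turned Rpl24 to -0.12, Rpl13 to -0.043. In reactivated against null G4, median scaling turned Rps3a3 to 0.14, Rplp0 to 0.082, Rplp1 to 0.10, Rplp2 to 0.12. In reactivated against null G4, quantile normalization turned Rps3a3 to 0.079, Rplp1 to 0.12, Rplp2 to 0.14. In reactivated against null G4, the sex term turned Rps3a3 to 0.14, Rplp0 to 0.027, Rplp1 to 0.045, Rplp2 to 0.056. Leaving out a library in reactivated against null G4 gave ranges of -0.12 to 0.15 for Rpl36, -0.24 to 0.23 for Rps3a3, -0.27 to 0.14 for Rplp0, -0.20 to 0.10 for Rplp1, -0.16 to 0.10 for Rplp2. In reactivated against heterozygous, median scaling turned Rps14 to -0.14, Rpl10a to -0.074. In reactivated against heterozygous, quantile normalization turned Rps14 to -0.22, Rpl10a to -0.24. In reactivated against heterozygous, rescaling without mitochondrial and member genes turned Rps14 to -0.023. In reactivated against heterozygous, the sex term turned Rps14 to -0.082. Leaving out a library in reactivated against heterozygous gave ranges of -0.35 to 0.12 for Rpl30, -0.082 to 0.23 for Rps14. In the difference of null effects, median scaling turned Rps3a3 to 0.28, Rpl24 to 0.24, Rps19bp1 to 0.19. In the difference of null effects, quantile normalization turned Rpl24 to 0.16, Rps19bp1 to 0.30.

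Depth in counts is not given, so how far depth limits low members such as Rpl3l is unknown.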
